A study of Arabidopsis thaliana with 18 samples.

Results

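The genes described here are the copper uptake system of Arabidopsis thaliana and its transcriptional regulator: SPL7 (AT5G18830), the reductases FRO4 (AT5G23980) and FRO5 (AT5G23990), the transporters COPT1 (AT5G59030), COPT2 (AT3G46900) and COPT6 (AT2G26975), and the copper chaperone CCH (AT3G56240). They are 7 of the 28991 genes in each expression table and were taken by locus identifier, whatever their values. RNA was sequenced from wild-type Col-0 plants, 6 weeks old, grown in hydroponics and then kept for 72 h in medium without phosphate. That medium held no added rare earth (control), 5 µM lanthanum as LaCl3 (La) or 5 µM ytterbium as YbCl3 (Yb), so the controls were also without phosphate. Roots and shoots were sequenced separately, with 3 libraries in each of the 6 groups and 3 pooled plants behind each library. The growth medium listed in the labels contained 0.5 µM copper sulphate, 50 µM iron-EDTA and 10 µM zinc sulphate.

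Plants take up copper after reducing it at the root surface with ferric/cupric reductases of the FRO family, and the reduced ion enters cells through COPT transporters. When copper is short, SPL7 binds DNA at a core of the letters GTAC and raises transcription of the uptake genes, of the iron superoxide dismutase gene FSD1, and of microRNAs that lower transcripts of copper proteins such as the Cu/Zn superoxide dismutases. SPL7 is therefore known mainly for its activity on target genes, and less for changes in its own transcript.

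The promoters of the genes that the results turn on are shown here to mark where the core motif bound by SPL7 is present or absent. Each is the 300 bases before the most upstream annotated transcript start in the RefSeq annotation of TAIR10.1, written 5′ to 3′ on the gene's strand, with GTAC, which reads the same on both strands, in capitals. COPT2 and CCH are the members whose transcripts rose in roots with La (below), COPT1 is a transporter that did not pass the test, and YSL2, ZIP2 and FSD1 are other genes known to respond to low copper.
COPT2 (chr3:17268575-17268874, plus strand): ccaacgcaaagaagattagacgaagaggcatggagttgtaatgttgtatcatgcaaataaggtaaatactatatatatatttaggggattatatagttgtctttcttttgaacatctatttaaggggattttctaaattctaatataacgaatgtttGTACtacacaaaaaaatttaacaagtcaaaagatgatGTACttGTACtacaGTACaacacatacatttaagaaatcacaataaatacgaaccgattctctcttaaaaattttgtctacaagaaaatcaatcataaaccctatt
CCH (chr3:20864728-20865027, minus strand): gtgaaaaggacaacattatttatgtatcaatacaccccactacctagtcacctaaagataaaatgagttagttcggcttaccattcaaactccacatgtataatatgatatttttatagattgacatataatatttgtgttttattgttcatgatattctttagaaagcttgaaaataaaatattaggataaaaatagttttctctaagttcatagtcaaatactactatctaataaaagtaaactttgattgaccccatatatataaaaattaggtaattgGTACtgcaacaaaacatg
COPT1 (chr5:23834746-23835045, minus strand): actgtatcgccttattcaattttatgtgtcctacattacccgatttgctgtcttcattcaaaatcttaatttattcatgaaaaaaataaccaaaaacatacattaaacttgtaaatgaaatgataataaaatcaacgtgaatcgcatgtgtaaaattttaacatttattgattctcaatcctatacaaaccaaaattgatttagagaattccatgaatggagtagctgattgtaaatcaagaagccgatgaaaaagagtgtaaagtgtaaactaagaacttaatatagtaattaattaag
YSL2 (chr5:8323595-8323894, plus strand): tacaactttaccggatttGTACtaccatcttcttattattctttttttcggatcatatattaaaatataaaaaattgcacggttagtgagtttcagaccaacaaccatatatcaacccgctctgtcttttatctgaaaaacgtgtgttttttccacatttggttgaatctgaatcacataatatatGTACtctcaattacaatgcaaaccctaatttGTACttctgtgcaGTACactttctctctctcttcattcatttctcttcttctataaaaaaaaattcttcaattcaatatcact
ZIP2 (chr5:23992909-23993208, minus strand): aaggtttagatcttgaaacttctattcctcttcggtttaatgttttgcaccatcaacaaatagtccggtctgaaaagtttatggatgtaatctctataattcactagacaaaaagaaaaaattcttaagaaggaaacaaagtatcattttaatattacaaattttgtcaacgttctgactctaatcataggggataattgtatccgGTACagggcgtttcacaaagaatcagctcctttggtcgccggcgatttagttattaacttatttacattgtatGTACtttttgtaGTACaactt
FSD1 (chr4:12887012-12887311, minus strand): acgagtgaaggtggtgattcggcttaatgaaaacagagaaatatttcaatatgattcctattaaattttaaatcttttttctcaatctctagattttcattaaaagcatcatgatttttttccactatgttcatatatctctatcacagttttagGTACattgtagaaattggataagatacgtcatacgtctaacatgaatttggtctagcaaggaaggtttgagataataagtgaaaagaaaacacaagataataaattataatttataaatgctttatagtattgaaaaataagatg
GTAC stood 4 times in the window of COPT2, at 143, 106, 100 and 92 bases before the transcript start. The annotated gene of COPT2 begins upstream of its transcript, at position 17268700 of chromosome 3, so these 4 copies lie within the bounds of the gene record. It stood once in that of CCH, 18 bases before the start, and in none of the windows of COPT1, COPT6, FRO4, FRO5 and SPL7. Within 300 bases, 39.73% of 27443 protein-coding genes had GTAC at least once and 0.46% had it 4 times or more. YSL2 also had 4 copies, ZIP2 had 3, a number reached by 2.24% of genes, and FSD1 had 1. In 1000 bases, FRO5 had 3 copies, CCH 2 and FRO4 1, while COPT1, COPT6 and SPL7 still had none; 82.28% of genes had at least 1 copy in that length. A match of 4 letters is a description of these windows and not a binding site.

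All values below are normalized reads, that is, the authors' read count per gene divided by 1 size factor per library. Recovered read totals were 12797264 to 16221846 per root library and 12442357 to 16345602 per shoot library. The roots and shoots were as labelled: in the controls, 5 root tissue markers summed to 15890 to 18910 normalized reads in roots and to 2.15 to 5.25 in shoots, while 6 green tissue markers summed to 124 to 247 in roots and to 339300 to 411300 in shoots. The La and Yb comparisons of a tissue share its 3 control libraries. Nothing in the labels places the replicates of a treatment in separate containers, and the p-values therefore measure the spread between these samples only, which may be technical. In whole roots and shoots, fewer cells of a type and less RNA per cell cannot be told apart.

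In La-treated roots, transcripts of the transporter COPT2 and the chaperone CCH were higher than in control roots, by 2.17-fold and 1.55-fold. No other member passed the test there. These were 2 of the 5 members that reached the level needed for testing, at least 1 normalized read in 3 libraries (adjusted p below 0.05, limma). Over all 22729 genes tested in that comparison 18.9% were called and 9.41% were called as higher, so transcriptome-wide change was broad. COPT6 and FRO5 were at 0 to 3 reads in every root library and were not tested. With Yb in roots, no member was called by limma, against 1.24% of all genes; CCH had an unadjusted p below 0.05, edgeR called 0 members and DESeq2 called 1.

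**Figure D1:**
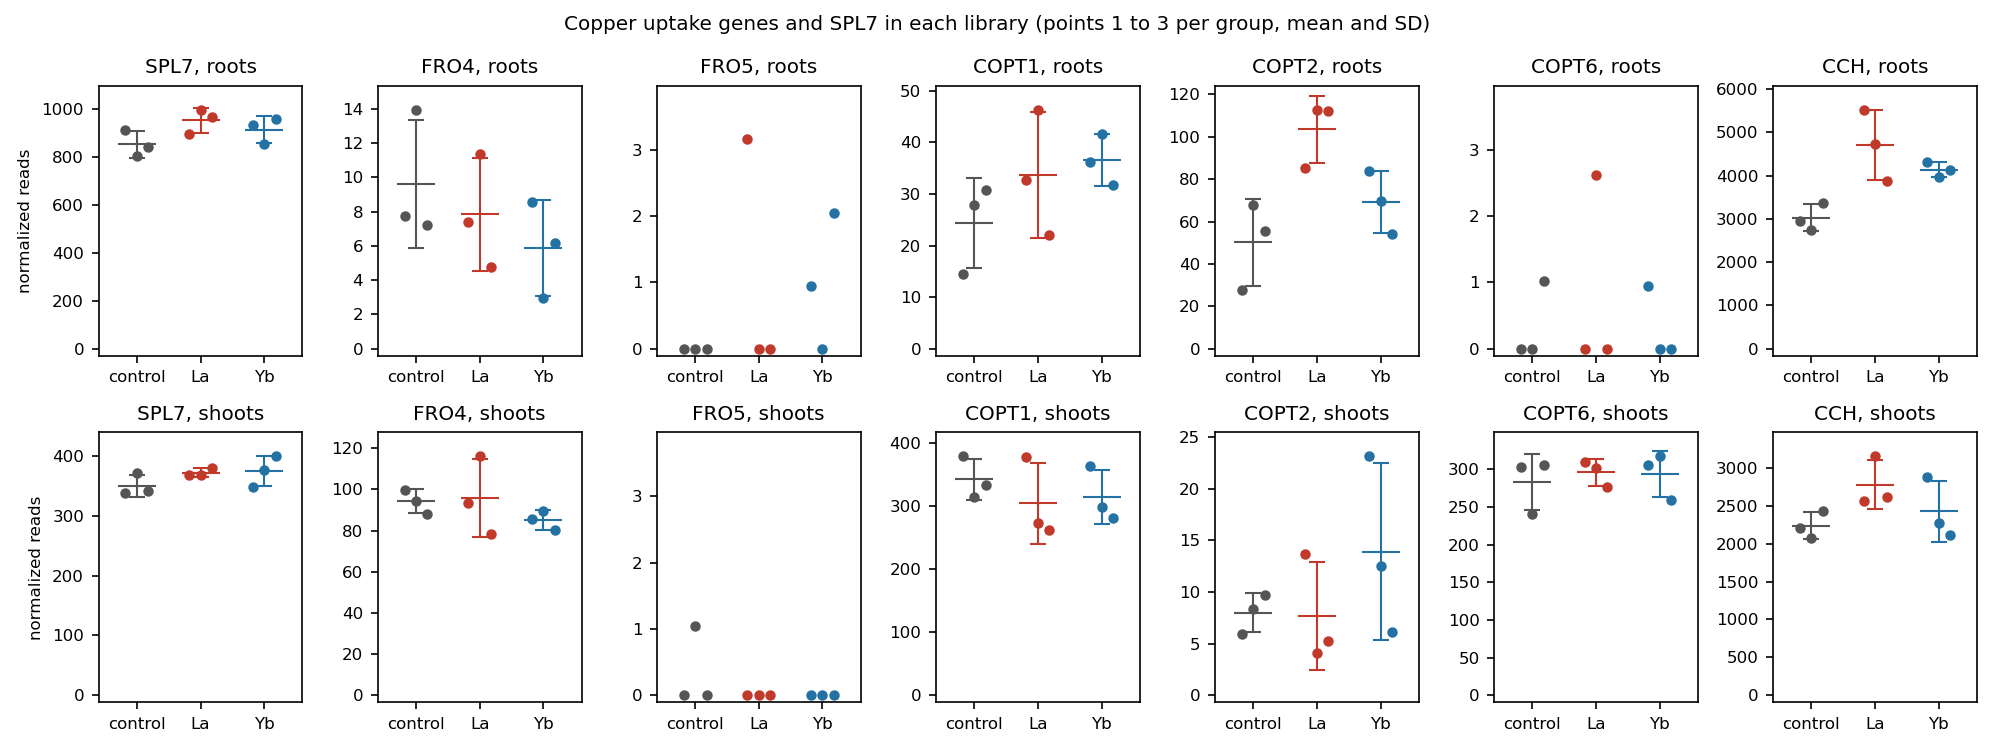
Normalized reads of the 7 genes in each library of control, La and Yb groups, roots above and shoots below, with group mean and SD (n = 3; not drawn where no library reached 5 normalized reads); vertical axes start near 0 and differ between panels. In roots the 3 La libraries of COPT2 and of CCH lie above the 3 controls, and COPT6 and FRO5 lie at or near 0. In shoots COPT6 runs from 240 to 317.

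SPL7, the transcription factor that activates the low-copper response, was among the steadiest of the 7 transcripts. In roots it stood at 913, 802 and 841 normalized reads in the controls, 896, 996 and 968 with La and 931, 852 and 959 with Yb. The groups overlapped in every comparison. The log2 difference was 0.16 ± 0.08 (SE, n = 3 per group) for La, with a 95% interval of -0.02 to 0.34 (adjusted p = 0.20, limma), and 0.10 ± 0.08 for Yb, with an interval of -0.08 to 0.28 (adjusted p = 0.57, limma). In shoots it ranged from 339 to 372 in controls, 368 to 381 with La and 349 to 400 with Yb, with log2 differences of 0.09 ± 0.08 and 0.10 ± 0.08 (adjusted p = 0.83 and 0.78, limma). Increases of SPL7 above 0.34 in roots and 0.27 in shoots on the log2 scale lay outside these intervals. The closest relatives of similar size in the family, SPL1, SPL12, SPL14 and SPL16, gave 0 calls among 4 tested in each comparison of an element with control by limma, edgeR and DESeq2, and at most 1 at an unadjusted p below 0.05 by limma.

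The copper reductases were scarce in roots. FRO4, which reduces copper at the root tip, had 7.76, 13.9 and 7.19 normalized reads in control roots, 7.38, 11.4 and 4.80 with La, and 8.58, 2.98 and 6.14 with Yb. All groups overlapped, and at this depth the 95% interval of the La difference ran from -1.42 to 0.82 and that of Yb from -1.83 to 0.41 on the log2 scale. Increases above 0.82 with La and above 0.41 with Yb lay outside these intervals, while decreases to -1.42 and -1.83 lay inside them. In shoots FRO4 was more abundant, at 88.2 to 99.9 normalized reads in controls, 78.3 to 116 with La and 80.1 to 89.6 with Yb. The log2 differences there were 0.01 ± 0.15 for La and -0.14 ± 0.15 for Yb (adjusted p = 1.00 and 0.84, limma).

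FRO5, the neighbour of FRO4 on chromosome 5 (FRO4 at chr5:8097978-8101330 and FRO5 at chr5:8105461-8108642, both on the minus strand, TAIR10.1), was close to undetected. In roots it had 0 reads in each control library, 3, 0 and 0 reads with La, and 1, 0 and 2 reads with Yb. In shoots it had 1 read, in a control library, over all 9 libraries. A count of 0 allows up to 3 reads, or 2.57 to 3.42 normalized reads depending on the library, and all FRO5 values lay at or under that limit, so no fold is given. The coding sequences of FRO4 and FRO5 are 92.6% identical over 2100 aligned bases, and 13.4% of the 30-base windows of the FRO4 transcript occur in FRO5 but no window of 125 bases, the read length, does. How the authors' counting split reads between the pair was not stated in the sources used here, so the level of each is uncertain to that extent.

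COPT2, a high-affinity copper importer of the plasma membrane, was the member with the largest difference in La-treated roots. Its normalized reads were 27.7, 67.7 and 55.5 in controls, 85.4, 113 and 112 with La and 83.9, 69.5 and 54.3 with Yb. All 3 La libraries lay above all controls and above all Yb libraries, whereas Yb overlapped with control. The log2 difference between La and control was 1.12 ± 0.31 (SE), with a 95% interval of 0.42 to 1.81 (adjusted p = 0.032, limma). The call depended on single libraries: the adjusted p was 0.064 without control 1, 0.059 without control 3, 0.099 without La 2 and 0.097 without La 3, with differences of 0.74, 1.23, 1.05 and 1.05. Without control 1, the lowest library, the difference was thus the smallest. Yb differed from control by 0.53 ± 0.31 (adjusted p = 0.43, limma) and La from Yb by 0.59 ± 0.31 (adjusted p = 0.30, limma), so that a difference between the elements was not shown.

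In shoots COPT2 was low and scattered. It stood at 5.93, 8.40 and 9.68 normalized reads in controls, 13.7, 4.07 and 5.29 with La and 23.2, 12.5 and 6.10 with Yb. The groups overlapped, and the intervals of the log2 difference were wide, -1.36 to 0.94 for La and -0.55 to 1.75 for Yb. The La effect in roots exceeded that in shoots by 1.33 ± 0.66 on the log2 scale, which did not pass the test of the difference (95% interval -0.07 to 2.73, adjusted p = 0.26, limma).

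COPT1, the main importer of copper at the root tip, had 14.4, 27.9 and 30.8 normalized reads in control roots, 32.7, 46.3 and 22.1 with La and 36.2, 41.7 and 31.7 with Yb. The Yb libraries lay just above the highest control, while the La libraries overlapped with the controls. The log2 differences were 0.47 ± 0.35 for La and 0.64 ± 0.35 for Yb (adjusted p = 0.40 for each element, limma), with intervals of -0.32 to 1.25 and -0.15 to 1.42. In shoots COPT1 ranged from 315 to 379 in controls, 261 to 377 with La and 281 to 363 with Yb, and its differences from control were -0.19 ± 0.14 and -0.13 ± 0.14 (adjusted p = 0.79 and 0.85, limma).

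COPT6, an importer known from aerial tissue, was read almost only in shoots. In roots it had 1 read in control 3, 3 reads in La 2, 1 read in Yb 1 and 0 reads in the other 6 libraries, all at or under the limit that a count of 0 allows. In shoots it stood at 303, 240 and 306 normalized reads in controls, 310, 301 and 276 with La, and 305, 317 and 259 with Yb. These groups overlapped closely, with log2 differences of 0.07 ± 0.11 for La and 0.06 ± 0.11 for Yb and intervals of -0.17 to 0.31 and -0.18 to 0.30 (adjusted p = 0.92 and 0.93, limma). The tables of roots and shoots were normalized separately, so no test of level between tissues was made.

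CCH, a chaperone that carries copper inside the cell and is known for its rise in senescing leaves, was by far the most abundant member. Its normalized reads in roots were 2952, 2751 and 3365 in controls, 5515, 4719 and 3881 with La and 4309, 3970 and 4131 with Yb. Every treated library lay above every control, and the La and Yb libraries overlapped. With La the log2 difference was 0.63 ± 0.13 (95% interval 0.35 to 0.91, adjusted p = 0.0079, limma), and it passed the test without any 1 of the 9 root libraries, with an adjusted p between 0.0058 and 0.031. With Yb the difference was 0.46 ± 0.13 with an interval of 0.18 to 0.74, which did not pass over all genes by limma (adjusted p = 0.11) and did by DESeq2 on recovered reads (log2 difference 0.45, adjusted p = 0.028). La and Yb differed by 0.17 ± 0.13 (adjusted p = 0.46, limma).

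In shoots CCH was 2210, 2069 and 2429 in controls, 2561, 3150 and 2618 with La and 2884, 2273 and 2118 with Yb. The La libraries lay above the controls, by 0.31 ± 0.12 on the log2 scale with an unadjusted p of 0.021, but the adjusted p was 0.51 (limma). Only 0.0865% of 21967 genes were called with La in shoots, 0.041% with Yb and 0.0091% between La and Yb. Of the members, 6 were tested in shoots and 0 were called in these 3 comparisons by limma, edgeR or DESeq2; at an unadjusted p below 0.05 limma gave 1, CCH with La. No member differed between La and Yb in roots either (0 of 5 by limma, edgeR and DESeq2, 0 at an unadjusted p below 0.05, 6.45% of all genes called).

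**Figure D2:**
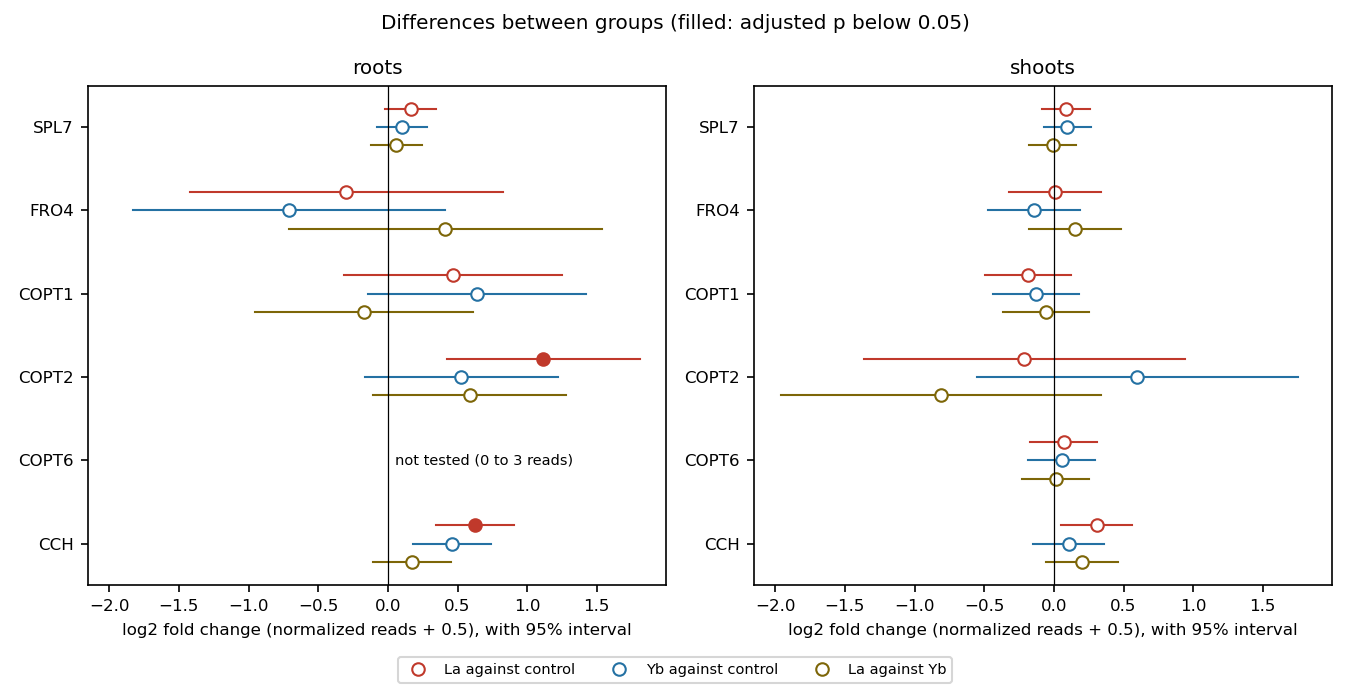
Log2 differences of normalized reads (pseudocount 0.5) with 95% intervals from limma for each element against control and for the elements against each other, in roots (left) and shoots (right); filled points have an adjusted p below 0.05. COPT2 and CCH with La in roots are the filled points, and FRO5 is not shown because it had at most 3 reads in any library.

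The effects in the 2 tissues were compared directly for the 5 members tested in both. With La, root minus shoot differences ran from -0.31 ± 0.51 for FRO4 to 1.33 ± 0.66 for COPT2, and 0 of 5 were called (0 also at an unadjusted p below 0.05 and by edgeR and DESeq2), against 6.86% of 20981 genes. With Yb they ran from -0.57 ± 0.51 for FRO4 to 0.77 ± 0.38 for COPT1, with 0 of 5 called in the same 3 tools and 0 at an unadjusted p below 0.05, against 0.31% of all genes. A COPT2 or CCH response particular to roots was therefore not shown.

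Per kilobase of annotated exon, the order of levels within a tissue was clear at most steps. In control roots CCH stood at 2300 ± 238 normalized reads per kb (SD, n = 3), SPL7 at 276 ± 18.3, COPT2 at 79.1 ± 32.2, COPT1 at 19.5 ± 6.98 and FRO4 at 4.12 ± 1.60, with no overlap between neighbours. In control shoots CCH again led at 1700 ± 138. COPT6 at 292 ± 38.0 and COPT1 at 273 ± 26.2 followed and overlapped with each other, and below them came SPL7 at 114 ± 5.91, FRO4 at 40.3 ± 2.49 and COPT2 at 12.6 ± 3.00. Among the members COPT1, COPT2 and COPT6, COPT2 thus led in roots and was the lowest in shoots. COPT5, outside the members and named here after its value was seen, was more abundant. Its control means were 1313 normalized reads in roots and 737 in shoots, against 50.3 and 8.0 for COPT2. La moved COPT2 in roots to 163 ± 24.6 per kb without changing the order of the members.

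The root genes with the most similar profile over the 9 root libraries were found by the root mean square difference of log2 profiles scaled to mean 0 and SD 1, for which a median gene differed from COPT2 by 1.41. For COPT2 they were AT5G01225 and CYCD3;1, a D-type cyclin, at 0.22 each. For CCH they were GSTU25, a glutathione transferase, and GGP3, at 0.20 each. COPT1 was closest to AT3G06520 (0.26) and AT1G55460 (0.36), FRO4 to AT2G44000 (0.36) and ET2 (0.40), and SPL7 to AT2G27180 (0.36) and HCT, an enzyme of lignin synthesis (0.38). All were picked as the closest of 20030 genes over 9 libraries, so small differences come in part from the search, and no test was made. FRO4 had only 3 to 14 reads per root library, and SPL7 passed no test in roots.

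Of 9 other genes known to respond to low copper, 4 have a row in the tables and were tested, and 3 of these 4 rose with La: FSD1, the iron superoxide dismutase that takes over when copper is short, YSL2, a metal-nicotianamine transporter, and ZIP2, a divalent metal transporter. Over all genes, 18.9% were called with La in roots. The 5 microRNA loci of the list were not analysed here. FSD1 stood at 637, 545 and 958 normalized reads in control roots, 3205, 3110 and 2334 with La and 2780, 1855 and 892 with Yb. All La libraries lay above all controls, with a log2 difference of 2.04 ± 0.41 (adjusted p = 0.013, limma), while Yb 3 lay inside the control range.

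ZIP2 separated the 2 elements. It had 132, 116 and 152 normalized reads in control roots, 463, 487 and 408 with La and 135, 154 and 74.7 with Yb. La exceeded control by 1.76 ± 0.24 (adjusted p = 0.0021, limma) and exceeded Yb by 1.96 ± 0.24 (adjusted p = 0.0079, limma), and Yb differed from control by -0.20 ± 0.24 (adjusted p = 0.74, limma), a value that was 0.12 without Yb 3. YSL2 had 326, 196 and 280 normalized reads in controls, 607, 630 and 537 with La and 486, 353 and 305 with Yb, and exceeded control by 1.17 ± 0.21 with La (adjusted p = 0.0059, limma). CITF1, the basic helix-loop-helix factor that acts with SPL7, had 0 reads in the controls and 1, 11 and 0 reads with La. It reached the level for testing only through La 1, La 2 and Yb 3. Its log2 difference with La, 1.99, rested on La 2. The interval ran from -0.44 to 4.42, and the test was not passed (adjusted p = 0.24, limma). Against a floor of 3 reads over the control group the La value was 3.40-fold higher, which is not a lower bound of the effect. The median log2 difference of the 4 genes with La was 1.88, or 1.76 with CITF1 at that floor, against 0.00 over all genes. Both medians include CITF1.

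With Yb, 0 of the 4 were called by limma or edgeR, 1 was called by DESeq2 and 2 had an unadjusted p below 0.05 by limma. FSD1 differed from control by 1.26 ± 0.41 (adjusted p = 0.19, limma); without Yb 3 the value was 1.71 (adjusted p = 0.021) and DESeq2 on recovered reads gave 1.37 (adjusted p = 0.030). Root Yb 3 stood apart from Yb 1 and Yb 2 in other genes also: its 8 root hair markers summed to 5628 normalized reads against 2051 and 1374, and leaving it out raised the number of genes called with Yb from 282 to 1140. Without it 0 members were still called, with COPT2 at 0.69 (adjusted p = 0.30) and CCH at 0.46 (adjusted p = 0.11).

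**Figure D3:**
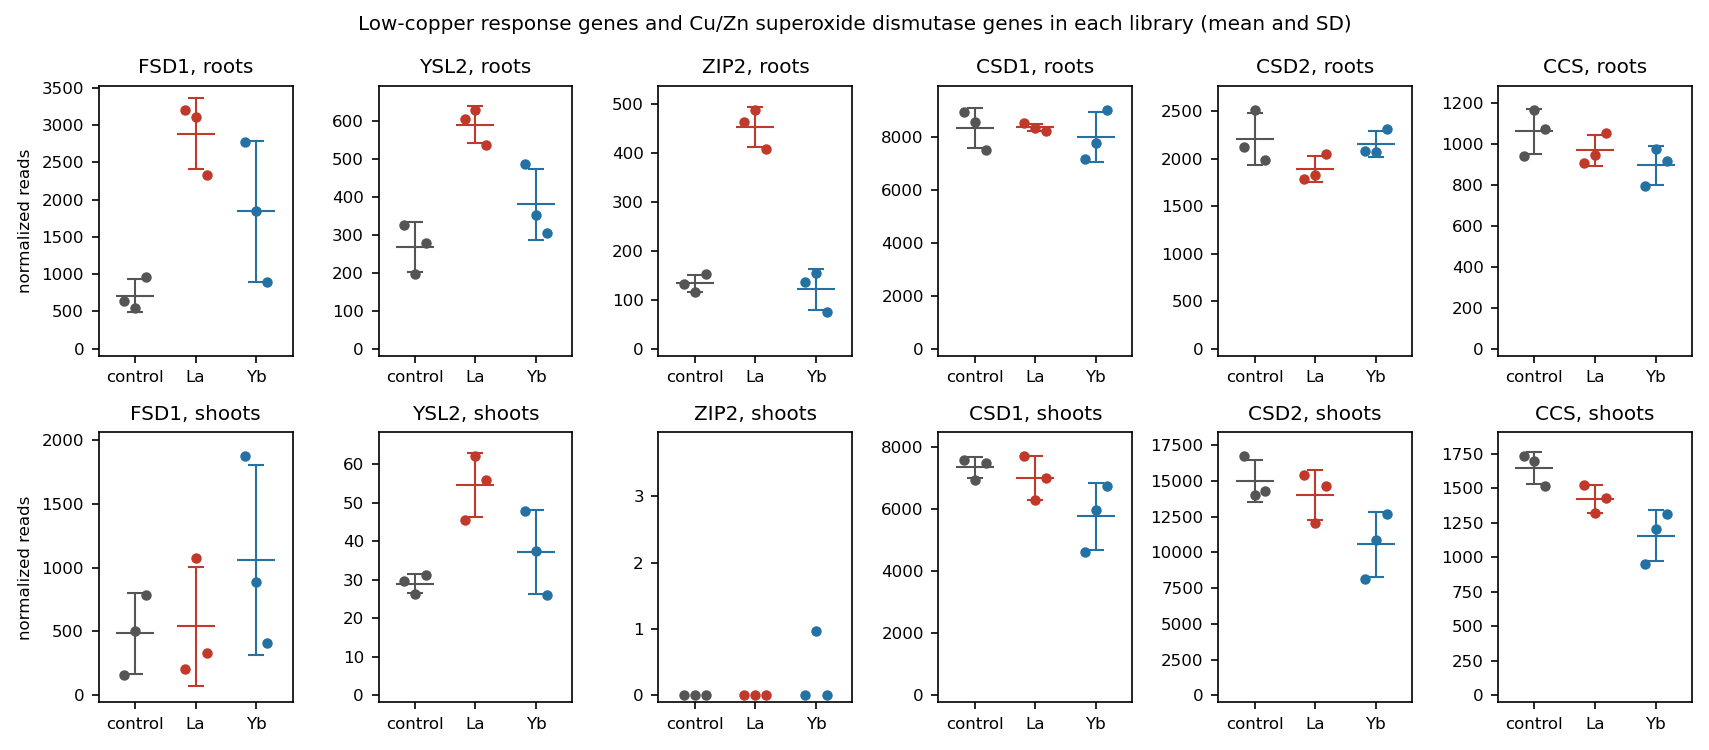
Normalized reads of FSD1, YSL2, ZIP2, the Cu/Zn superoxide dismutase genes CSD1 and CSD2 and their chaperone gene CCS in each library, roots above and shoots below, with mean and SD (n = 3; not drawn for ZIP2 in shoots). In roots FSD1, YSL2 and ZIP2 with La lie above all controls; in shoots the first Yb library has the highest FSD1 (1871) and the lowest CSD1 (4610), CSD2 (8165) and CCS (951).

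The copper superoxide dismutases did not pass the test in La-treated roots. CSD1, the cytosolic enzyme, differed from control by 0.01 ± 0.10, CSD2, the plastid enzyme, by -0.22 ± 0.10, and CCS, their copper chaperone, by -0.13 ± 0.11 (adjusted p = 0.97, 0.17 and 0.46, limma). The 95% interval of CSD2 ran from -0.44 to 0.01. These genes were chosen from the list after their values were seen. FSD1 in shoots was 159, 505 and 788 in controls, 206, 1076 and 333 with La and 1871, 890 and 409 with Yb. Yb 1, with the highest FSD1 and the highest COPT2 of all shoot libraries, had the lowest CSD1 (4610, against 5993 to 7713 in the other 8), CSD2 (8165, against 10850 to 16730) and CCS (951, against 1205 to 1732). That is 1 library, and its COPT2 value rests on 27 reads. YSL2 was not highest there, at 48.0 against 62.1 in shoot La 2 and 56.1 in shoot La 3. With La in shoots, YSL2 differed from control by 0.89 ± 0.24 (adjusted p = 0.27, limma). All 3 Yb libraries lay below all controls for CSD1, CSD2 and CCS, with log2 differences of -0.36 ± 0.12, -0.53 ± 0.15 and -0.52 ± 0.11, of which none passed over all genes by limma (adjusted p = 0.46, 0.37 and 0.16). How often Yb and control lay fully apart over all genes was not counted. In that comparison 8.44% of all genes had an unadjusted p below 0.05 by limma. DESeq2 on recovered reads called CCS (adjusted p = 0.0091).

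Of 12 tested targets of copper-regulated microRNAs, these dismutases and CCS included, 3 rose and 1 fell in La-treated roots. This was 33.3% against 18.9% of all genes, with a median log2 difference of -0.09. The 3 were the plantacyanin ARPN and the laccases LAC7 and LAC12. ARPN, the plantacyanin targeted by miR408, went from 525 ± 91.1 to 1939 ± 767 normalized reads (SD, n = 3; log2 difference 1.82 ± 0.25, adjusted p = 0.0027, limma). LAC7 went from 892 ± 107 to 2064 ± 351 (1.20 ± 0.13, adjusted p = 7.19e-04, limma) and LAC12 from 48.6 ± 7.33 to 125 ± 14.6 (1.36 ± 0.18, adjusted p = 0.0015, limma), while COX5B-1, a subunit of cytochrome c oxidase named here after its value was seen, fell by 0.37 ± 0.08 (adjusted p = 0.014, limma; 0.051 without La 3). LAC7 and LAC12 were 2 of 7 laccases tested. The other 5 did not pass, at -0.26 for LAC2, -0.06 for LAC3, -0.29 for LAC4, 0.55 for LAC13 and -0.71 for LAC17 on the log2 scale. With Yb only ARPN of the 12 was called, at 1.62 ± 0.25 (adjusted p = 0.029, limma), a call lost without control 1, 2 or 3 or Yb 1 or 2, at adjusted p values of 0.071, 0.080, 0.066, 0.14 and 0.089.

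Among the proteins that hand copper on and pump it, 3 of 12 rose with La in roots and 0 fell, or 25.0% against 18.9% of all genes, with a median of 0.10. HMA5, the pump that exports copper from root cells, rose by 0.65 ± 0.08 (adjusted p = 9.2e-04, limma), and ATX1, the chaperone most like CCH, by 0.39 ± 0.08 (adjusted p = 0.0074, limma). COX17-2, a mitochondrial copper chaperone, rose by 0.43 ± 0.11 (adjusted p = 0.021, limma), a call lost without control 1, 2 or 3 or La 1 or 2, at adjusted p values of 0.056, 0.058, 0.051, 0.062 and 0.055. With Yb 0 of the 12 passed limma's or edgeR's test, 1 passed DESeq2's, and 3 had an unadjusted p below 0.05 by limma.

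Other transporters of copper or its complexes moved both ways in La-treated roots: of 6 tested, 1 rose and 2 fell. This was 50.0% called, against 18.9% of all genes. OPT3, which loads iron and copper into the phloem, stood at 85.4, 86.6 and 55.5 normalized reads in control roots, 361, 372 and 271 with La and 273, 209 and 257 with Yb, with all treated libraries above all controls. The log2 differences were 2.15 ± 0.20 with La (adjusted p = 4.33e-04, limma) and 1.71 ± 0.20 with Yb (adjusted p = 0.0097, limma; 0.088 without Yb 1). OPT3 was also the only gene of the copper lists that limma called in shoots, with La, at 1.31 ± 0.15 (adjusted p = 0.019, limma); the adjusted p was 0.098 without shoot control 2 and 0.12 without shoot La 1. In shoots DESeq2 called OPT3 and FRO3 as higher and YSL1 as lower with La (adjusted p = 1.13e-14, 8.83e-07 and 0.028). With Yb it called these 3 in the same directions (3.07e-07, 0.049 and 0.046). It also called CCS and the plastocyanin gene PETE2 (0.018) as lower with Yb. COPT4, another gene of the COPT family, fell by 0.99 ± 0.27 in La-treated roots (adjusted p = 0.028, limma). That call was lost without control 2 or 3 or La 1 or 2 (adjusted p of 0.091, 0.083, 0.080 and 0.078). YSL1, a relative of YSL2, fell by 1.31 ± 0.40 (adjusted p = 0.043, limma), a call lost without control 1 or 3, La 2 or 3, or Yb 1 or 2, at adjusted p values of 0.12, 0.13, 0.14, 0.071, 0.054 and 0.057, and in the fit of only the groups compared (0.054).

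Of the other FRO reductases, which act mainly on iron, 3 of 5 tested rose with La in roots and 0 fell, with a median of 1.07. FRO3, a mitochondrial member, went from 810 ± 71.9 to 1712 ± 171 normalized reads (SD, n = 3; 1.08 ± 0.11, adjusted p = 5.78e-04, limma). FRO8 rose by 1.56 ± 0.38 (adjusted p = 0.022, limma; 0.063 without La 2). FRO2, the ferric reductase of the root surface, rose by 1.07 ± 0.29 (adjusted p = 0.033, limma), a call lost without control 2 or 3, La 2 or 3 or Yb 3, at adjusted p values of 0.095, 0.097, 0.082, 0.086 and 0.054, and at 0.057 in the fit of only the groups compared. IRT1, the iron importer that works with FRO2 and is 1 of the 5 root tissue markers, rose as well, by 1.34 ± 0.23 (adjusted p = 0.0056, limma).

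Of the metallothioneins, small proteins that bind copper and other metals, MT2B and MT3 rose with each element in roots. MT2B went from 4613 ± 506 normalized reads in controls to 9332 ± 1454 with La and 8825 ± 1185 with Yb, by 1.01 ± 0.14 and 0.93 ± 0.14 (adjusted p = 0.0017 and 0.018, limma). MT3 rose by 0.82 ± 0.15 with La and 0.78 ± 0.15 with Yb (adjusted p = 0.0053 and 0.041, limma). They were 2 of 4 metallothioneins tested, and the medians of the 4 were 0.92 with La and 0.73 with Yb. Over all genes in roots, 18.9% were called with La and 1.24% with Yb. For Yb, the call of MT2B was lost without control 2 or 3 or Yb 1 or 2 (adjusted p of 0.056, 0.057, 0.11 and 0.061), and that of MT3 without 7 of the 9 root libraries (control 1, 2 and 3, La 1 and 3, Yb 1 and 2, adjusted p between 0.053 and 0.12). Among 6 other copper proteins, which include plastocyanins and ascorbate oxidases, 0 were called with either element in roots by limma, edgeR or DESeq2, and 2 with La and 1 with Yb had an unadjusted p below 0.05 by limma.

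Over the 8 copper lists without the 7 members, 52 genes were tested in roots. With La 15 were called higher and 3 lower, or 34.6% against 18.9% of all genes, and with Yb 4 were called higher and 0 lower, or 7.69% against 1.24%. The lists were drawn up with results of these data known, and no test of the lists was made.

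**Figure D4:**
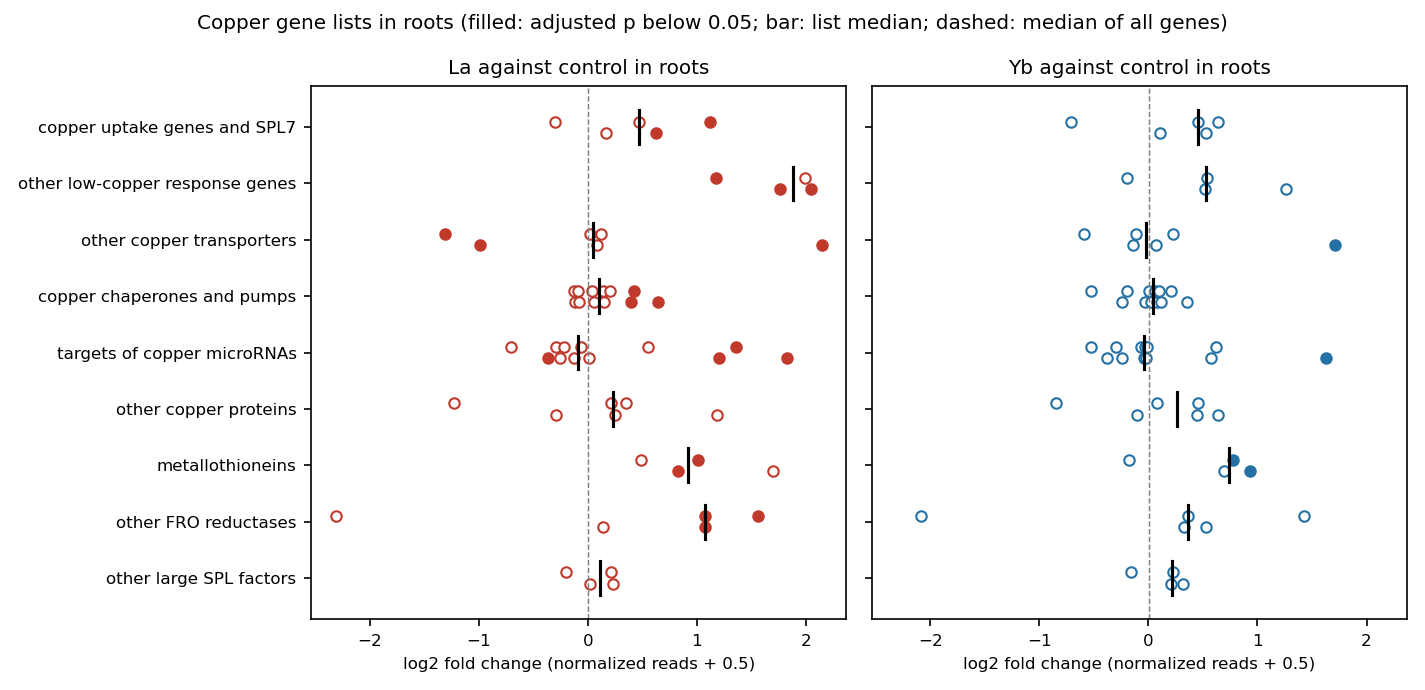
Log2 differences from control (pseudocount 0.5) of each tested gene of the copper lists in roots, La left and Yb right; each point is 1 gene, filled where the adjusted p is below 0.05, with the list median as a bar and the median of all genes dashed. With La 3 of the 4 other low-copper response genes are filled, and with Yb the filled points are OPT3, ARPN, MT2B and MT3.

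Markers of root cell types moved with La in the same libraries, in which 18.9% of all genes were called. Of 8 root hair markers 7 fell, with a median of -4.29: their sum was 3895 to 5869 normalized reads in controls, 86.5 to 564 with La and 1374 to 5628 with Yb, and none was at 0 throughout a group. Those with the smallest adjusted p were RHS19 (-4.33 ± 0.84), RSL2 (-3.83 ± 0.75) and COBL9 (-4.57 ± 0.91), at adjusted p values of 0.013, 0.013 and 0.013 (limma). Phloem markers summed to 3917 to 4113 in controls, 4993 to 5331 with La and 4057 to 4895 with Yb, and 2 of 5 rose with La, PP2-A1 (0.78 ± 0.12, adjusted p = 0.0029, limma) and SUC2 (0.39 ± 0.10, adjusted p = 0.019, limma; 0.073, 0.055 and 0.069 without control 3, La 2 or La 3). The other 3 phloem markers, named here after their values were seen, did not pass, and the median of the 5 was 0.12. From control to La, mean normalized reads of APL went from 224.2 to 217.5 and of CALS7 from 542.5 to 486.5. SEOR1 went from 1299 to 1418 and PP2-A1 from 1216 to 2086. Of 6 senescence markers 4 were tested and these rose with La, NAC2 by 2.80 ± 0.20, NAP by 2.02 ± 0.16 and NYC1 by 2.63 ± 0.27 (adjusted p = 3.09e-04, 3.09e-04 and 8.35e-04, limma). The senescence sum was 471 to 576 in controls, 2084 to 2765 with La and 1025 to 1312 with Yb, with 2 of the 6 genes at 0 in all controls and 1 at 0 in all La and in all Yb libraries.

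With Yb, 2 senescence markers rose, NAP by 1.65 ± 0.16 (adjusted p = 0.0064, limma) and NAC2 by 1.42 ± 0.20 (adjusted p = 0.021, limma; 0.064, 0.11 and 0.070 without control 2, Yb 1 or Yb 2, and 0.054 in the fit of only the groups compared). NAP and NAC2 were 2 of 4 senescence markers tested, and 1.24% of all genes were called with Yb in roots. Of the 5 root tissue markers, CASP1 of the endodermis fell with La, by 1.99 ± 0.51 (adjusted p = 0.035, limma). That call was lost without control 1, 2 or 3, La 2 or 3, or Yb 1 (adjusted p of 0.095, 0.055, 0.084, 0.065, 0.067 and 0.051) and in the fit of only the groups compared (0.056). Green tissue markers gave 0 calls of 6 in roots with either element by limma, edgeR and DESeq2, and 0 at an unadjusted p below 0.05. The part of these shifts in the values of COPT2, CCH and the other copper genes was not tested.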

How the data were processed

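RNA-seq of 9 root and 9 shoot libraries was analysed from a pair of tables, 1 per tissue, that the authors deposited under the name RPKM. The deposited values are a signal: within a library all values were whole multiples (within 0.001) of the smallest one, whatever the gene's length, so they are read counts divided by 1 size factor per library, not divided by length. The tables were normalized separately. Trimmomatic 0.36.1, TopHat2 2.1.1, HTSeq 0.6.1p1 and TAIR10 are named per the submitters' processing notes. Libraries were stranded and polyA-selected, per the labels' protocols, and sequenced in pairs of 125 bases; the strand setting of the counting was not given in the sources used here. No member overlaps another annotated gene.

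Differences were tested with limma 3.58.1 (R 4.3.3) on log2(value + 0.5), with a trended, robust variance, over the 9 libraries of a tissue, for genes of at least 1 in 3 libraries. Benjamini-Hochberg adjustment ran over all genes tested, with a threshold of 0.05. Effects of both tissues were compared in a fit of all 18 libraries. A log2 fold change on this scale understates the change of low genes. edgeR 4.0.16 and DESeq2 1.42.0 on recovered reads were alternatives, besides other pseudocounts, filters, weights, quantile normalization, fewer groups, a replicate block and each library left out. The limit of 3 reads for a count of 0 covers counting error only.

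The members and lists were chosen with earlier results of these data known. Genes were named by rule: all members, of each other list up to 3 called genes with the smallest adjusted p in a comparison with control, and the 2 genes most alike each member tested in roots (mean value of at least 10); others are marked where they appear. The result of 1 gene that the rule names is not reported here. CSD1, CSD2, CCS, COX5B-1, the laccases without a call, genes called in shoots by DESeq2 alone and the low-copper genes in comparisons without a call were named after their values were seen.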

Additional observations from a re-analysis of the deposited data

Results flagged for a closer look

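No member passed the test of a difference between tissues. Among the other named genes, the response in roots differed from that in shoots in the test of the difference itself for the following 10 genes (root minus shoot, log2 scale, ± SE, adjusted p by limma over 20981 genes). Over all genes, 6.86% were called in this test with La and 0.31% with Yb. Each of the 10 had already been called against control in roots with the same element. The same root values enter the difference, so the number of genes here is not separate support. The copper pump HMA5 gave 0.74 ± 0.18 with La (adjusted p = 0.019), and COX5B-1, a subunit of cytochrome c oxidase, gave -0.45 ± 0.11 (0.023). Plantacyanin ARPN gave 1.86 ± 0.29 with La (0.0023) and 1.59 ± 0.29 with Yb (0.033). The metallothionein MT2B gave 0.76 ± 0.18 with La (0.019) and 0.96 ± 0.18 with Yb (0.033), and MT3 gave 0.66 ± 0.19 (0.046) and 1.04 ± 0.19 (0.026). The phloem marker PP2-A1 gave 0.58 ± 0.14 with La (0.023) and the root hair regulator RSL2 gave -4.28 ± 0.98 (0.017). The senescence markers NAC2, NAP and NYC1 gave 2.06 ± 0.41, 2.62 ± 0.46 and 3.18 ± 0.34 with La (0.0078, 0.0042 and 2.18e-04). By edgeR, 4 of these calls did not pass: ARPN with Yb (adjusted p = 0.053), MT2B with Yb (0.052), MT3 with La (0.072) and RSL2 with La (0.056). DESeq2 made each of the calls (adjusted p of 0.019 at most). With a replicate block ARPN with Yb (0.096) and PP2-A1 with La (0.053) did not pass. RSL2 had 4 to 20 reads in each shoot library, so that its shoot difference rests on few reads. Lower shoot values enter the differences of NYC1 and NAP. With La in shoots NYC1 went from 6632 ± 1381 to 4467 ± 683 normalized reads (SD, n = 3). DESeq2 called it as lower there (log2 difference -0.57, adjusted p = 0.023). Shoot means of NAP went from 52.6 to 34.8 and those of NAC2 from 60.3 to 99.2.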

How the results depend on the processing

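The count of members called with La in roots was 2 under each of the 10 alternatives that keep all libraries, and 1 to 2 with 1 library left out. With Yb in roots it was 0, and 1 by DESeq2; with 1 library left out it stayed at 0. In the other 6 comparisons it was 0 throughout. Same-numbered libraries did not all deviate together (correlations of -0.20 to 0.33 in roots and -0.20 to 0.21 in shoots, and -0.013 to 0.11 between roots and shoots). A pairing by number was thus not shown, but these correlations cannot exclude it. The main tests treated all libraries as unpaired, those of roots minus shoots included. With a replicate block the members called were 2 with La in roots and 0 elsewhere. The calls of FRO8 with La and of ARPN and MT3 with Yb were lost with the block (adjusted p = 0.051, 0.058 and 0.076, limma). In that fit 3799 genes were called with La and 239 with Yb in roots. Other copper genes called with Yb in roots numbered 4, and 10 with library weights, 8 by DESeq2 and 2 with the block. All genes called with Yb in roots numbered 282, and 129 in the fit of only the groups compared, 1281 with library weights, 1026 by DESeq2 and 8 to 1140 with 1 library left out. In the library-weight and DESeq2 results 55.3% and 58.4% of these calls were higher, against 70.2%. In shoots La gave 19 calls (7 to 121 over the alternatives), Yb 9 (6 to 101) and La against Yb 2 (1 to 83), and in roots La against Yb gave 1466 (497 to 2744). The difference of effects between tissues gave 1440 calls with La (1225 to 1908) and 65 with Yb (44 to 294). Quantile normalization ended the call of COPT4 (adjusted p = 0.068), YSL1 (0.059) and, with Yb, MT3 (0.054).

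Sign changes were seen only in differences that passed no test, and the cause was not tested. COPT1 between La and Yb in roots was 0.011 with quantile normalization, and SPL7 between La and Yb in shoots 0.006. For the Yb effect in roots minus shoots, COPT2 was 0.081 with library weights and 0.061 with quantile normalization, and SPL7 was -0.010 with library weights and -0.006 with edgeR. With 1 library left out, COPT1 ran from -0.43 to 0.10 between La and Yb in roots and from -0.223 to 0.049 in shoots. For La in shoots COPT2 ran from -0.70 to 0.12, COPT6 from -0.042 to 0.131 and FRO4 from -0.14 to 0.15. For Yb in shoots COPT6 ran from -0.056 to 0.146 and CCH from -0.024 to 0.199. Between La and Yb in shoots COPT6 ran from -0.074 to 0.072 and SPL7 from -0.059 to 0.038. For the Yb effect in roots minus shoots COPT2 ran from -0.54 to 0.38 and SPL7 from -0.045 to 0.057. ZIP2 with Yb in roots ran from -0.398 to 0.12. Depth limits FRO5 and, in roots, COPT6 and FRO4.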
